A study of Mus musculus with 3 samples.

Results

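The collagen genes were the 44 genes with a symbol of the form Col, number, a, number that had a probe set of their own on the array, among 19938 genes in all. They were chosen by symbol, from probe sets annotated to exactly 1 gene symbol, and where a gene had several such probe sets the brightest over the arrays stood for it. By the usual division of the family, 11 are fibrillar, 6 basement membrane, 6 beaded, 9 FACIT (fibril-associated collagens with interrupted helices) and 4 transmembrane collagens. The remaining 8 are the short-chain, multiplexin, anchoring-fibril and unclassed genes.

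There were 3 arrays of bone marrow cells from tibia, femur and pelvis, sorted by flow cytometry at baseline. Of these, 2 arrays hold CXCL12-abundant reticular (CAR) cells from 2 CXCL12-GFP knock-in mice, in which GFP is read from the Cxcl12 locus. The third array is labelled as a pool from 3 mice of the genotype Prx1-Cre Rosa26Ai9/+ Cxcl12gfp/+, gated as PDGFRa+ Sca+ CD45- lineage- and called PaS here. All mice thus carry the Cxcl12-GFP allele, and only the PaS mice carry Prx1-Cre, a driver of limb mesenchyme, with the Ai9 fluorescent reporter. Ages are not given in the labels. Genotype, pooling and cell type differ together and cannot be told apart, and the array labelled PaS has no replicate.

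Collagens are secreted proteins whose chains wind around each other into a rope-like helix with glycine at regular intervals. Fibrillar collagens form the tensile fibres of bone, skin and tendon, type IV collagens the meshwork of basement membranes, type VI collagens the beaded filaments around cells, FACITs the links on fibril surfaces, and transmembrane collagens stay anchored in the cell. In bone marrow, reticular stroma lays down a loose fibre net that carries blood cells, while osteoblasts at the bone surface make most of the type I collagen of bone matrix.

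The sorts were checked first. Cxcl12 had log2 intensities of 10.94 and 11.11 on the CAR arrays, against 7.76 on the array labelled PaS. Pdgfra, the receptor used in the PaS gate, had 7.52 and 7.97 on the CAR arrays against 4.33, and Ptprc, which encodes the excluded CD45, had 5.11 and 5.01 against 8.27. Both genes thus went against the PaS label. Prrx1, the gene whose regulatory sequence drives Prx1-Cre, was also lower on that array, with 7.76 and 8.06 on the CAR arrays against 5.24. Of 7 measured markers listed for Sca-1+ and fibroblast cells, Dpt, Thy1, S100a4, Cd34 and Mfap5 were higher on the array labelled PaS than in CAR cells. Thy1 had 3.56 and 3.69 on the CAR arrays against 7.67. Which cells on the array labelled PaS gave the signal of these markers was not tested. All 8 blood cell markers fell in CAR cells, with a summed linear intensity of 307 and 393 on the CAR arrays and 2314 on the array labelled PaS, and 6 of 8 neutrophil markers fell, with sums of 2865 and 2568 against 14759. All 8 markers of CAR and leptin receptor stroma were higher, with sums of 6275 and 7356 against 535. Of the other blood lists, 3 of 8 macrophage, 3 of 5 B lymphoid, 1 of 3 erythroid and 2 of 5 megakaryocyte markers fell and 0 rose, and of 5 tendon markers 1 rose and 2 fell. Marker counts, here and below, are of genes with a limma adjusted p under 0.05. Of all genes, 8.56% passed as higher and 6.42% as lower in CAR cells. The part of this blood cell signal in the collagen differences was not tested. In bulk RNA, fewer cells of a type and less RNA per cell cannot be told apart.

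Across the collagen genes, 6 were higher in CAR cells and 1 was lower by limma with an adjusted p under 0.05, and 37 were not called. The share of all genes called was 8.56% higher and 6.42% lower, 15.0% in either direction, so the 15.9% of collagen genes called lies near the background. With quantile normalization 6 collagens were higher and 4 lower, where 27.4% of all genes were called, and after centring each array on its median 7 were higher and 2 lower, where 21.9% were called. The account below is therefore of single genes and classes, and not of the family as a whole. The median log2 difference, CAR minus PaS, was 0.06 over the collagen genes and −0.10 over all genes. By class it was 0.43 for the fibrillar, 0.40 for the basement membrane, −0.08 for the beaded, −0.02 for the FACIT, −0.07 for the transmembrane and 0.21 for the remaining genes. These class values hold for the main scaling alone. With quantile normalization every fibrillar gene had a lower difference, Col27a1 with 0.07 in place of 0.43. Class medians were not computed there. At an unadjusted p under 0.05, 13 collagen genes differed, as did 7004 of all 19938 genes. Adding 16 to the linear intensities left 0 calls by limma over all genes, with 5794 genes and the same number of collagens, 13, at an unadjusted p under 0.05. By size alone, a 2-fold or greater difference in both CAR arrays was met upward by 7 collagen genes and by 10.9% of all genes, and downward by 2 collagen genes and by 8.92% of all genes. Both CAR arrays lay on the same side of the array labelled PaS for 36 of the 44 collagens, against 84.2% of all genes. As shares of all genes, 37.4% lay above and 46.8% below. Between the CAR arrays the collagens had a median gap of 0.17 and a largest gap of 0.53 log2 units, against a median gap of 0.27 over all genes.

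**Figure D1:**
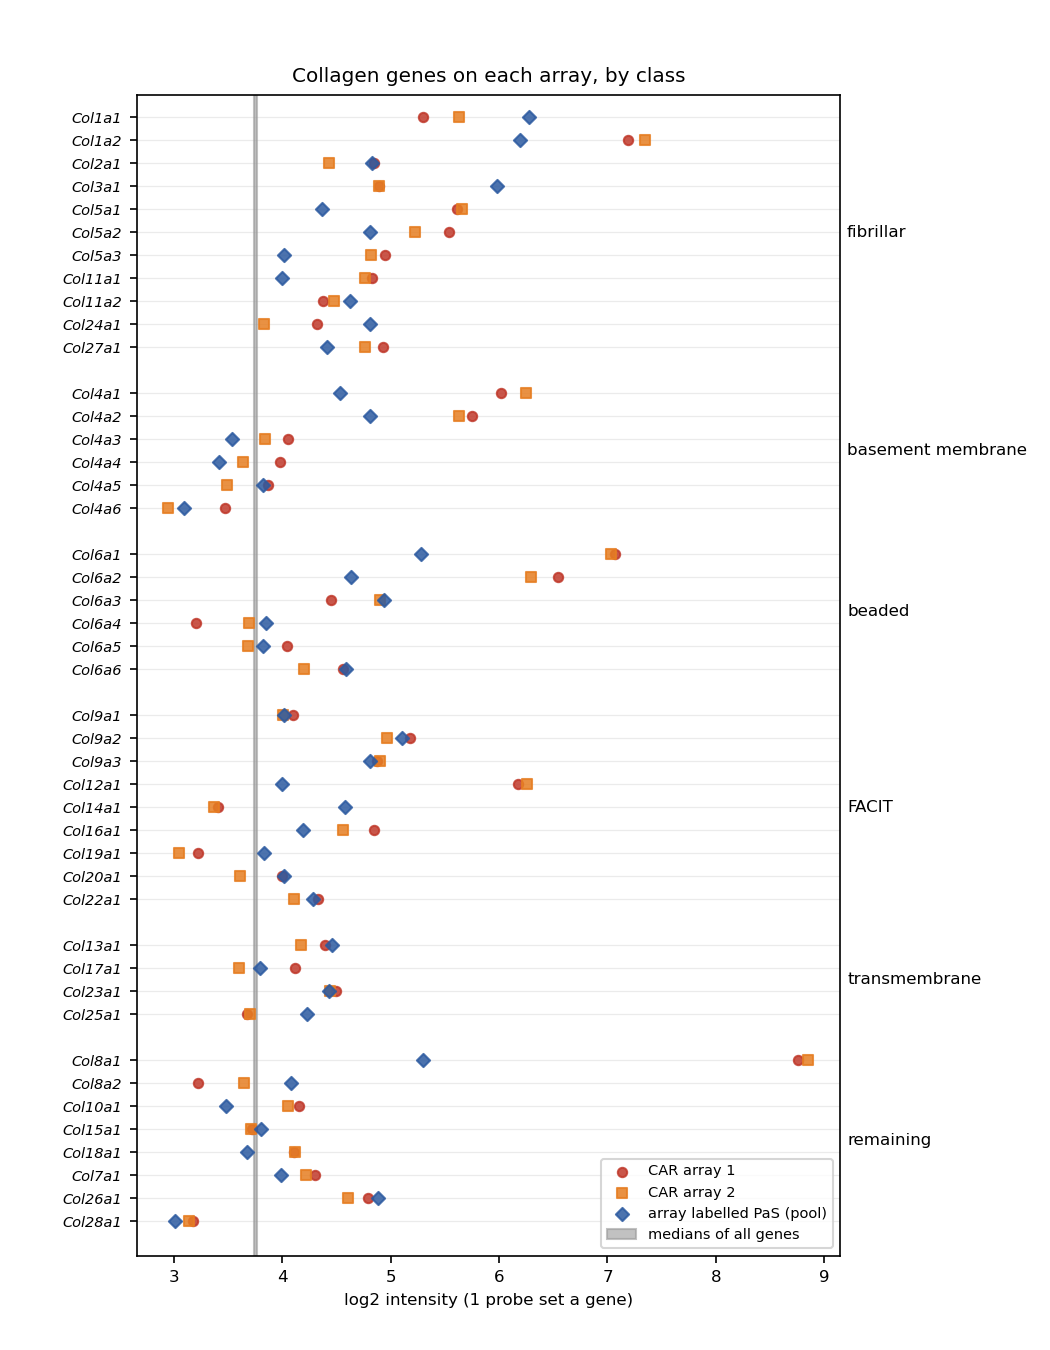
Log2 intensity (horizontal axis) of each of the 44 collagen genes on CAR array 1, CAR array 2 and the array labelled PaS, ordered by class, with the medians of all genes on the 3 arrays as a grey band. Col8a1 lies farthest to the right on the CAR arrays, at 8.76 and 8.85, and Col1a1 and Col3a1 have both CAR points left of the point of the array labelled PaS.

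**Figure D2:**
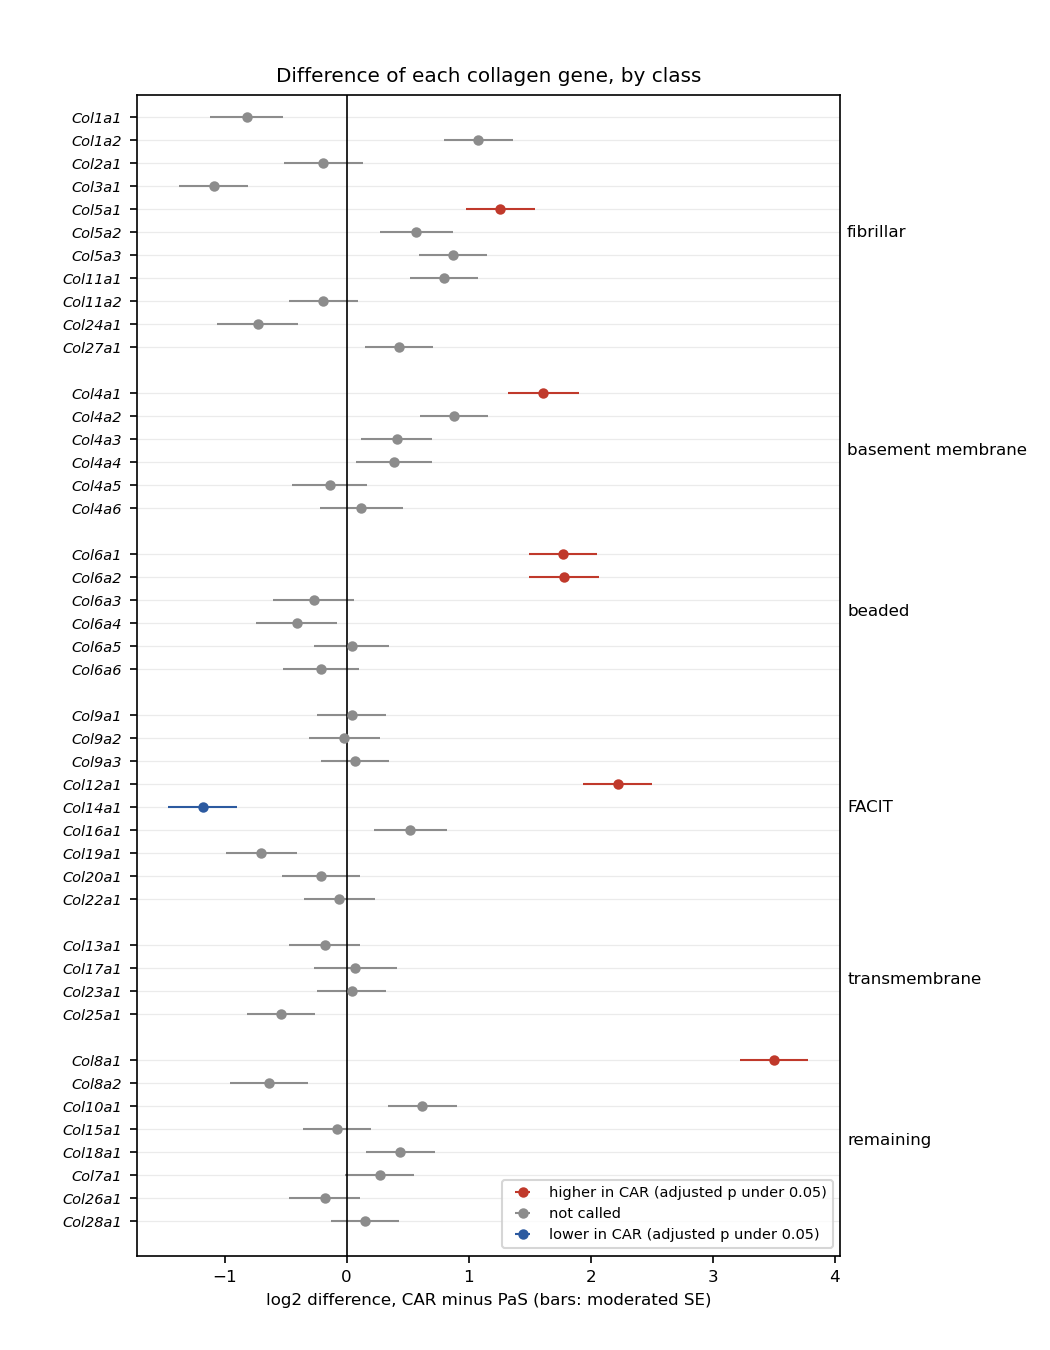
Log2 difference, CAR minus PaS, of each collagen gene by class, with limma's moderated standard error as the bar and genes with an adjusted p under 0.05 in colour. The 6 genes called higher run from 1.26 (Col5a1) to 3.50 (Col8a1), and the 1 called lower is Col14a1 at −1.18.

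Stretches of promoter are shown for 4 genes: Col8a1 and Col5a1, called higher, and Col1a2 and Col3a1, fibrillar genes whose differences have opposite signs. Each is the 250 bases before the annotated start, 5′ to 3′ on the gene's own strand, from RefSeq on GRCm38.p6, with 3 motifs in capitals wherever either strand holds them. These are CCAAT, known from many promoters, the TATAA box, and the GC-rich motif GGGCGG. The stretches lie at chr16:57754738-57754987 on the minus strand for Col8a1, chr2:27886175-27886424 on the plus strand for Col5a1, chr6:4505368-4505617 on the plus strand for Col1a2 and chr1:45311288-45311537 on the plus strand for Col3a1.
Col8a1: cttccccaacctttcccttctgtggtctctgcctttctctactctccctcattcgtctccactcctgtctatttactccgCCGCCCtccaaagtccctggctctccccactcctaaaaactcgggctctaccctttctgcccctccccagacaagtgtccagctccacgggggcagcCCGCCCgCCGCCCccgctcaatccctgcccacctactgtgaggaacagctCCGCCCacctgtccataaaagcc
Col5a1: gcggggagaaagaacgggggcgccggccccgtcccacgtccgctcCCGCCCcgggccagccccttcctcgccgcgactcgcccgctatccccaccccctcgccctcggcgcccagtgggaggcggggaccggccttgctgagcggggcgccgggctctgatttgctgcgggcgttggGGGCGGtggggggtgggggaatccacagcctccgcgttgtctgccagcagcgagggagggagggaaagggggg
Col1a2: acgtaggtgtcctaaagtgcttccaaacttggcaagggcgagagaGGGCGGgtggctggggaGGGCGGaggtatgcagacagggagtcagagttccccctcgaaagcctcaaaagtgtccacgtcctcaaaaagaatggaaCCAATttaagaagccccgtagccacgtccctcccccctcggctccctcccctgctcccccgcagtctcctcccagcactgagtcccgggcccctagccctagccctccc
Col3a1: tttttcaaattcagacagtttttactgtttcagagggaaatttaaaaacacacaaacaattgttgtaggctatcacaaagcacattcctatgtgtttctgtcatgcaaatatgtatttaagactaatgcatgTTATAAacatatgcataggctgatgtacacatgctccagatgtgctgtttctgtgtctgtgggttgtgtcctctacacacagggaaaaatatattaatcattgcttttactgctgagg

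Col8a1 has 4 copies of GGGCGG and neither of the other motifs, and Col5a1 has 2 copies of GGGCGG alone. Col1a2 has 2 copies of GGGCGG and 1 CCAAT, while Col3a1 has neither and carries TATAA on both strands in 1 overlapping stretch. Of the other genes called higher, Col6a2 holds GGGCGG, Col4a1 and Col6a1 do not, and Col12a1 has no stretch. Col8a2, not called, holds 4 copies. No link between the motif and the calls was tested. The table of promoters matched 35 of the 44 genes, with 38 stretches. Of these, 57.9% held GGGCGG on either strand, against 32.7% of all 32851 promoter stretches in the table; CCAAT was in 34.2% against 33.8% and TATAA in 18.4% against 22.8%. These are matches of letters, and binding was not measured.

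Among the fibrillar collagens, 1 of 11 was higher in CAR cells (9.09%, against 8.56% of all genes) and 0 were lower (against 6.42%). With quantile normalization Col1a1, Col3a1 and Col24a1 were called lower, where 27.4% of all genes were called. The genes of the major fibre chains had differences of opposite sign. Col5a1, a chain of the type V collagen that starts and limits the width of type I fibrils, had log2 intensities of 5.61 and 5.66 on the CAR arrays, against 4.37 on the array labelled PaS. Both CAR values lay above the other array, and CAR cells were 2.39-fold higher (1.26 ± 0.28 on the log2 scale, SE; limma adjusted p = 0.0444). The call was lost with an intensity trend in the variance, at an adjusted p of 0.0542.

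Col1a2, the minor chain of type I collagen and the fibrillar gene with the highest CAR mean, had 7.19 and 7.35 on the CAR arrays against 6.19. Both CAR arrays were higher, by 1.08 ± 0.28 log2 units (SE), which did not pass the test (limma adjusted p = 0.0619). Col1a1, the major chain of the same molecule, had the opposite order, with 5.30 and 5.63 on the CAR arrays against 6.28 (difference −0.82 ± 0.30, SE; limma adjusted p = 0.126). Col3a1, which forms thin reticular fibres together with type I collagen, stood at 4.89 and 4.89 against 5.98 on the array labelled PaS (difference −1.09 ± 0.28, SE; limma adjusted p = 0.0585). Col1a1 and Col3a1 were picked for mention after their values were seen.

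Whether these 3 genes passed depended on the setting. Quantile normalization gave limma adjusted p = 0.00769 for Col1a1 and 0.00486 for Col3a1, with log2 differences of −1.42 and −1.65, and lowered the difference of Col1a2 to 0.45 (limma adjusted p = 0.233). After centring each array on its median, Col1a2 passed at an adjusted p of 0.0389 and Col3a1 at 0.0435. With a robust variance prior and the scaling as it was, they passed at 0.0489 and 0.0462. The sign of each difference was kept under every setting tried.

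Within an array, the log2 ratio of Col1a2 to Col1a1 was 1.89 and 1.73 in CAR cells and −0.10 on the array labelled PaS. The absolute ratio depends on the probes and has no meaning of its own, but its shift of 1.90 log2 units between the arrays does not depend on a scaling factor common to an array, and was 1.87 after quantile normalization. The ratio of Col1a2 to Col3a1 moved in the same direction, at 2.30 and 2.47 in CAR cells against 0.21. No test of these ratios was made. Relative to their own arrays, Col1a1 lay at the 82.6 and 84.0 percentiles of all genes in CAR cells, against 95.5 for the array labelled PaS, and Col1a2 at 96.9 and 96.6 against 95.1.

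The rest of the fibrillar class was not called. Col5a2 and Col5a3, further chains of type V collagen, had differences of 0.57 and 0.87, and Col11a1, a cartilage chain that also occurs in other tissues, 0.80, each with both CAR arrays above the other. Col27a1, a fibrillar collagen of cartilage, had 0.43. Col24a1, a minor fibrillar collagen of bone, had −0.73 and passed only with quantile normalization, at a limma adjusted p of 0.0345. Col2a1, the main collagen of cartilage, and Col11a2 had the same small difference of −0.19. On the array labelled PaS the cartilage and joint markers Prg4, Chad, Comp and Clec3a were higher than in CAR cells, 4 of 10 chondrocyte markers in all, and the summed linear intensity of the list was 132 and 169 on the CAR arrays against 1996. Prg4 alone held 1411 of that last sum, and Acan, Sox9, Matn1, Matn3, Hapln1 and Cnmd were not called. Its part in the collagen differences was not tested.

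In the basement membrane class 1 of 6 genes was higher in CAR cells (16.7%, against 8.56% of all genes) and 0 were lower (against 6.42%). Col4a1, the major chain of the ubiquitous type IV network, had log2 intensities of 6.02 and 6.25 on the CAR arrays, against 4.53 on the array labelled PaS. The groups did not overlap, and CAR cells were 3.04-fold higher (1.61 ± 0.29 log2 units, SE; limma adjusted p = 0.0317). Its partner Col4a2 stood at 5.75 and 5.63 against 4.81, 0.88 ± 0.28 log2 units higher (SE), which did not pass (limma adjusted p = 0.0941).

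Col4a1 and Col4a2 lie next to each other on chromosome 8 and are read in opposite directions, and their 300-base promoter windows in the RefSeq table overlap by 78 bases. Both had higher levels on the CAR arrays. The log2 ratio of Col4a2 to Col4a1 was −0.27 and −0.62 in CAR cells against 0.29, so the 2 chains differed by unequal amounts, without a test. The chains of specialised basement membranes such as the kidney filter had smaller differences: 0.41 for Col4a3 and 0.39 for Col4a4, which also neighbour each other, and −0.14 for Col4a5 and 0.12 for Col4a6, a pair on the X chromosome. The signs of Col4a5 and Col4a6 depended on which CAR array was used. The markers of endothelium, another source of type IV collagen, ran the other way: 0 of 9 were higher in CAR cells and 3 were lower, with summed intensities of 139 and 123 on the CAR arrays against 323. Their part in the type IV values was not tested.

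The beaded class held 2 genes higher of 6 (33.3%, against 8.56% of all genes) and 0 lower (against 6.42%). Col6a1, a chain of the type VI microfibrils around cells, had log2 intensities of 7.07 and 7.03 on the CAR arrays, against 5.28 on the array labelled PaS. The CAR values lay 3.41-fold higher (1.77 ± 0.28 log2 units, SE; limma adjusted p = 0.0251). Col6a2, its neighbour on chromosome 10 and partner in the same molecule, stood at 6.54 and 6.29 against 4.63, 3.44-fold higher (1.78 ± 0.29, SE; limma adjusted p = 0.0268).

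The ratio of Col6a1 to Col6a2 was nearly the same on the arrays, at 0.52 and 0.75 log2 units in CAR cells and 0.65 on the array labelled PaS. The third classical chain, Col6a3, was not called. It stood at 4.45 and 4.90 on the CAR arrays, against 4.94, with the CAR arrays 0.45 log2 units apart and a difference of −0.27 ± 0.33 (SE; limma adjusted p = 0.604). The log2 ratio of Col6a1 to Col6a3 was therefore 2.61 and 2.13 in CAR cells against 0.34, and that of Col6a2 to Col6a3 2.09 and 1.39 against −0.31. The alternative chains Col6a4, Col6a5 and Col6a6, which sit side by side on chromosome 9, had differences of −0.41, 0.04 and −0.21. For Col6a5 the probe sets disagreed: the one not used had 4.28 and 3.89 on the CAR arrays against 2.50, a difference of 1.58.

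**Figure D3:**
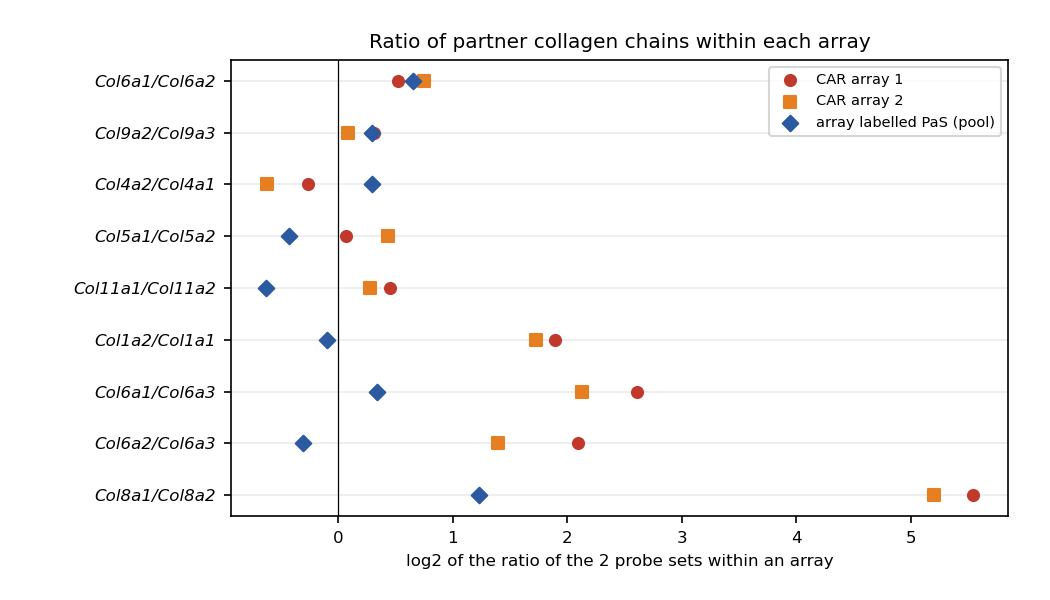
Log2 ratio of the probe sets of 2 chains within an array (horizontal axis), for pairs of chains that share a molecule or a collagen type, on CAR array 1, CAR array 2 and the array labelled PaS. The ratios of Col6a1 to Col6a2 and of Col9a2 to Col9a3 overlap between the arrays. Those of Col1a2 to Col1a1, of Col6a1 and Col6a2 to Col6a3, and of Col8a1 to Col8a2 lie to the right on both CAR arrays. The ratios of Col5a1 to Col5a2 and of Col11a1 to Col11a2 also lie to the right, by less, and that of Col4a2 to Col4a1 lies to the left. The level of Col8a2 is below the median of all genes on both CAR arrays, so the distance in its row is uncertain.

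Of the 9 FACIT collagens, 1 was higher in CAR cells (11.1%, against 8.56% of all genes) and 1 was lower (11.1%, against 6.42%). Col12a1, which decorates type I fibrils in tendon, ligament and bone, had log2 intensities of 6.17 and 6.26 on the CAR arrays, against 4.0 on the array labelled PaS. CAR cells were 4.65-fold higher (2.22 ± 0.28 log2 units, SE; limma adjusted p = 0.018), well beyond the gap between the CAR arrays. Col14a1, the closest relative of Col12a1 on fibril surfaces and a gene of interstitial fibroblasts, went the other way, with 3.41 and 3.37 in CAR cells against 4.58, 2.27-fold lower (difference −1.18 ± 0.28, SE; limma adjusted p = 0.0498). Its CAR values lay below the medians of all genes, 3.74 and 3.75, and the call was lost with a pseudocount of 1.

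Fibroblast markers were lower beside Col14a1. In the list for Sca-1+ and fibroblast cells, 7 markers were measured; in CAR cells 5 of them were lower and 0 higher, with a summed linear intensity of 65.9 and 67.7 on the CAR arrays against 818. Their part in the Col14a1 difference was not tested. Among the other FACITs, Col16a1 had a difference of 0.52 and Col19a1 of −0.70, neither called. The type IX chains of cartilage, Col9a1, Col9a2 and Col9a3, had 0.04, −0.02 and 0.07, and Col20a1 and Col22a1 had −0.21 and −0.06. The differences of the type IX genes lay within their standard errors of 0.28 to 0.29.

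No transmembrane collagen was called (0 of 4 by limma, and 0 of 4 at an unadjusted p under 0.05). Col23a1, the one with the highest CAR mean, stood at 4.50 and 4.44 on the CAR arrays against 4.43. Its difference of 0.04 became −0.28 with quantile normalization. Col13a1, found at cell adhesions and the nerve-muscle junction, had a difference of −0.18, Col17a1, a hemidesmosome protein of epithelia, 0.07, and Col25a1, first known from neurons, −0.54. A difference that does not pass with 2 arrays against 1 does not show equal levels: the standard errors were 0.28 to 0.34 log2 units here.

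The largest collagen difference lay outside these 5 classes. Col8a1, a short-chain collagen that forms hexagonal networks under endothelium and in vessel walls, had log2 intensities of 8.76 and 8.85 on the CAR arrays, against 5.30 on the array labelled PaS. It was 11.3-fold higher in CAR cells (3.50 ± 0.28 log2 units, SE; limma adjusted p = 0.0103) and lay at the 99.3 and 99.2 percentiles of all genes there, against 88.2. Its usual partner chain Col8a2 was not called, with 3.22 and 3.65 in CAR cells against 4.08 (−0.64 ± 0.32, SE; limma adjusted p = 0.223). Both CAR values of Col8a2 were under the CAR medians of 3.74 and 3.75, so the size of the shift in the ratio of Col8a1 to Col8a2 is not given.

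Col10a1, the marker of hypertrophic cartilage, had a difference of 0.62, and the multiplexins Col15a1 and Col18a1, basement membrane collagens that carry heparan or chondroitin sulfate, had −0.08 and 0.44. Col7a1, which anchors epidermis to dermis, had 0.27, Col26a1 −0.18 and Col28a1 0.15. None of these passed. Of 3 measured Schwann cell markers, 0 were called; Col28a1 is known from peripheral nerve. Of 7 smooth muscle and pericyte markers, 1 was higher and 0 were lower.

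Neighbours in the genome did not always share a direction. On chromosome 1, Col3a1 and Col5a2 lie next to each other with differences of −1.09 and 0.57, and Col9a1 and Col19a1 with 0.04 and −0.70. None of these genes was called in the main fit. After quantile normalization Col5a2 had 0.08, and Col9a1 and Col19a1 shared a sign, with −0.07 and −0.62. The 6 other neighbouring pairs were those of the type IV and type VI genes described above.

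Genes that make, bind and break down collagen were set beside the collagens, from 7 lists with 73 measured genes. Of these, 30 were higher in CAR cells (41.1%, against 8.56% of all genes) and 9 lower (12.3%, against 6.42%), with a median log2 difference of 0.82. The values come with no detection call. Of the genes named below, P3h2, P3h4, Ddr2, Mrc2 and Mmp13 lay below the median of all genes, 3.77, on the array labelled PaS, and Dpt and Pcolce2 below the medians of 3.74 and 3.75 on the CAR arrays, so the sizes of their differences are uncertain. The blood cell signal on the array labelled PaS moves with these counts too, and its part was not tested.

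Hydroxylases and chaperones act on the chains inside the cell. Of 15 genes of prolyl and lysyl modification 7 were higher and 0 lower, led by P3h2, a prolyl 3-hydroxylase active on basement membrane collagens, with 7.77 and 7.44 on the CAR arrays against 3.38 (difference 4.22 ± 0.31, SE; limma adjusted p = 0.00914), a difference that was 3.0 with a pseudocount of 16. Crtap, the partner of prolyl 3-hydroxylase 1, was higher by 2.12, P3h4 by 1.96 and P3h3 by 1.71. Of 10 chaperone and secretion genes 4 were higher and 0 lower: Creb3l1, a transcription factor that turns on type I collagen genes in osteoblasts, by 2.91, Mia3, which loads procollagen into transport carriers, by 1.91, the collagen chaperone Serpinh1 by 1.73 and Fkbp7 by 1.58.

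Outside the cell, procollagen is trimmed and crosslinked. Pcolce, an enhancer of procollagen C-proteinase, stood at 9.67 and 9.84 on the CAR arrays against 6.97 (difference 2.78), and Bmp1, the proteinase itself, was higher by 1.59. The related enhancer Pcolce2 fell by 2.24, so 2 of 9 genes in that list were higher and 1 was lower. Of 5 crosslinking enzymes 4 were higher and 0 lower: Loxl1 by 2.86, Lox by 2.68, Loxl3 by 2.54 and the transglutaminase Tgm2 by 1.72.

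The proteins that sit on collagen fibrils went both ways, with 5 of 15 higher and 6 lower. Ogn and Podn, small leucine-rich proteins of the matrix, were higher by 3.54 and 2.50, whereas fibronectin, Fn1, fell by 4.61. Dpt, which binds decorin and fibrils, had 2.60 and 2.27 on the CAR arrays against 8.10, a difference of −5.66, or −3.76 with a pseudocount of 16. Among 10 collagen receptors, 5 were called higher and 0 lower in CAR cells. The receptor kinase Ddr2 had 6.86 and 6.99 on the CAR arrays against 3.17 (difference 3.76, or 2.46 with a pseudocount of 16), the integrin chains Itga1 and Itga11, which bind collagen together with Itgb1, were higher by 3.26 and 2.99, and the uptake receptor Mrc2 by 2.17.

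Among collagen-degrading proteases 3 of 9 were higher and 2 lower. Mmp13, the interstitial collagenase of bone and cartilage, had 8.22 and 9.04 on the CAR arrays against 3.19 (difference 5.44 ± 0.42, SE; limma adjusted p = 0.01), and the difference was 4.04 with a pseudocount of 16. The membrane-bound collagenase Mmp14 was higher by 3.03 and the fibroblast activation protein Fap by 3.38. Mmp8, the collagenase stored in neutrophils, fell by 3.35, together with the neutrophil markers given above. Of 5 measured osteoblast markers, 3 were higher in CAR cells and 0 lower, with summed intensities of 2215 and 3284 on the CAR arrays against 174. Most of these sums is Ibsp, with linear intensities of 2071 and 3096 against 112.

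**Figure D4:**
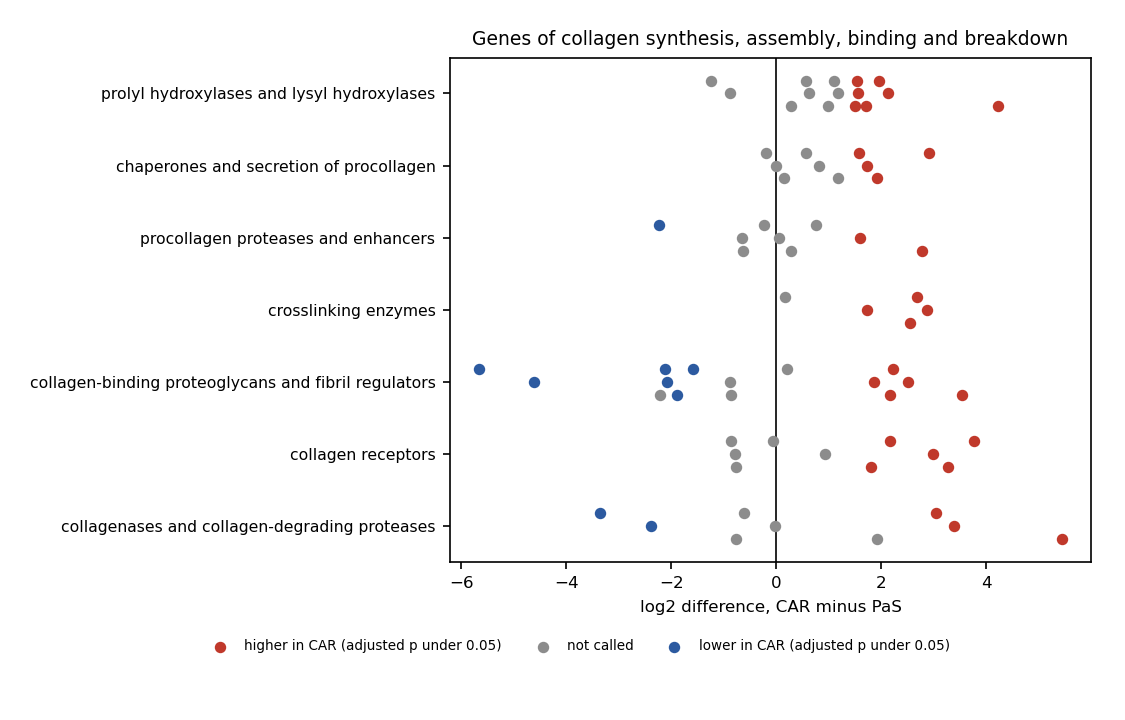
Log2 difference, CAR minus PaS (horizontal axis), of each measured gene in 7 lists of collagen synthesis, assembly, binding and breakdown, with genes at an adjusted p under 0.05 in colour and points spread vertically only to separate them. Points called higher stand in all 7 lists, and points called lower in the lists of procollagen proteases, fibril-binding proteins and collagen-degrading proteases.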

How the data were processed

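RNA of sorted bone marrow cells was measured on Affymetrix gene arrays, 2 of CAR cells and 1 labelled as a PaS pool. The deposited values are RMA intensities on a linear scale, made by the authors with Affymetrix Expression Console, per the submitters' processing notes. Their versions were not given in the sources used here. Log2 was taken without a pseudocount. The arrays were not scaled again for the main fit. Their log2 values over all genes had interquartile ranges of 1.96 and 2.28 on the CAR arrays and 1.35 on the array labelled PaS. Differences in the main fit thus compare arrays of unequal width. Of 35556 probe sets, 21789 have 1 gene symbol, 1621 several and 12146 none in the platform annotation. The brightest probe set by mean log2 stood for each of 19938 genes. CAR minus PaS was fitted over all genes by lmFit and eBayes of limma 3.58.1, run under R 4.3.3, with Benjamini-Hochberg adjustment and a threshold of 0.05. There was 1 residual degree of freedom, with 4.20 more from the prior. The spread comes from the CAR arrays alone, the lone array labelled PaS is assumed to vary like them, and the number of arrays limits the precision. The fit was tested on simulated data. The simulation gave all arrays the same spread for a gene, so it could not test that assumption about the array labelled PaS. It drew its noise by the model that limma itself assumes, so it could not test whether these data follow that model. Collagens past the threshold and the gene with the highest CAR mean per class were given by array, and of each other list up to 4 genes past the threshold with the largest differences. Members and lists were chosen with earlier results of these data known. Alternatives covered scaling, pseudocount, level filter, probe sets, variance prior and leaving out a CAR array.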

Additional observations from a re-analysis of the deposited data

How the results depend on the processing

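No paired analysis was possible because the CAR arrays and the PaS pool come from mice of different genotypes. Leaving out a CAR array left no residual degrees of freedom, so it gave differences without a test. Collagens called lower numbered 2 after centring each array, 4 after quantile normalization, 2 with a robust prior and 0 with a pseudocount of 1, where Col14a1 was lost. In the same order, 1913, 2831, 1778 and 1037 of all 19938 genes were called lower, against 1281 in the main fit. With a pseudocount of 16, 0 collagens, 0 machinery genes and 0 of all genes were called in either direction by limma, the smallest adjusted p being 0.0537, with 5794 genes, 13 collagens and 52 machinery genes at an unadjusted p under 0.05. With an intensity trend added, after the data were seen, 6 collagens were called again and of all genes 1404 were higher and 2564 lower. Quantile normalization called 14 machinery genes lower and 5467 of all genes, 2636 higher and 2831 lower. Keeping genes at or above the median level left 2062 called higher and 510 lower. Signs turned only for collagens that were not called: leaving out CAR replicate 1 or 2 gave −0.19 and 0.34 for Col17a1, −0.18 and 0.05 for Col22a1, −0.40 and 0.02 for Col2a1, −0.33 and 0.05 for Col4a5, −0.14 and 0.38 for Col4a6, −0.14 and 0.22 for Col6a5, and −0.13 and 0.08 for Col9a2; after quantile normalization, Col23a1 was −0.28, Col9a1 −0.07 and Col9a3 −0.39; and with the mean of all probe sets Col6a6 was 0.01. The cause of these changes was not tested. Called collagens kept their direction under every setting run.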
